A study of Mus musculus with 2 samples.

Results

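Acetylcholine receptor and denervation genes were read in hindlimb skeletal muscle of mice that carry a Syn4 transgene (overexpression of syntaxin 4) and of wild-type mice. The genes were the 5 subunits of the muscle acetylcholine receptor (Chrna1, Chrnb1, Chrnd, Chrne, Chrng), 3 genes of the machinery that gathers the receptor under the nerve ending (Musk, Dok7, Rapsn) and 2 genes known for their response to loss of the nerve (Ncam1, Runx1). They were chosen by name from the platform annotation, and all 10 were found among 19938 genes, each on 1 probe set that named no other gene.

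Each genotype was measured on 1 whole-transcript array, so the study holds 2 arrays. Both arrays came from male C57BL/6J animals on standard chow, and 100 ng of total RNA was labelled with biotin for each. The only stated difference is the Syn4 transgene. The number of mice behind an array, any pooling, their age, and the promoter and species of the transgene are details not given in the sources used here. The series concerns lifespan and insulin sensitivity, and this comparison addresses what the transgene goes with in muscle RNA. With 1 array per group no difference could be tested or set against the spread between mice, and no value below has an error.

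Values are log2 intensities after RMA, a procedure that normalizes arrays together and summarises the probes of each gene. Differences are the transgenic minus the wild-type value on this log2 scale. A gene was counted as higher or lower when it differed by at least 1.5-fold (0.58) and its brighter value reached 6.79, the median of that value over all genes, called the level filter here. As a reference for dim signal, olfactory receptor genes, which muscle is not known for, had a 95th percentile of 5.42. The transgene's own gene, Stx4a, was at 8.84 in wild-type and 12.20 in transgenic muscle. Fibre markers matched the tissue label, since all 9 of them (Acta1 and Ckm among them) lay between 13.11 and 14.45.

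The muscle acetylcholine receptor is a pentamer of 2 alpha subunits with beta, delta and either the fetal gamma or the adult epsilon subunit. In innervated adult fibres its genes are read mainly by the nuclei beneath the nerve ending, where agrin from the nerve binds Lrp4 and activates the kinase MuSK. MuSK acts with its adaptor Dok-7, and the scaffold rapsyn holds the receptors in clusters. When a fibre loses its nerve, electrical silence lets nuclei along its whole length read the subunit genes again, gamma included. Ncam1 and Runx1 are then classically raised as well.

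Across the 10 genes, 7 were higher and 3 lower in the transgenic array, with a median difference of 0.32. Over all 19938 genes, many of them dim, 46.9% were higher and the median was 0.00. Among genes past the level filter, 53.5% were higher by at least 0.01 and the median was 0.03. The members past the filter had a median of 0.35. Of the 9 that passed the level filter, 3 were higher by at least 1.5-fold (Ncam1, Runx1 and Chrnb1) and none was lower by that much. In the background, 2.66% of the 9974 genes that passed were higher by 1.5-fold and 1.71% were lower. All 9 passed the filter in both arrays, and Chrng passed in neither. The differences of Ncam1 and Runx1 were known when the genes were chosen. Without them, the median of the other 8 was 0.19, an alternative added after the data were seen, and Chrnb1 alone was past 1.5-fold. The count of 3 beside the background is therefore a description and no independent support.

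**Figure D1:**
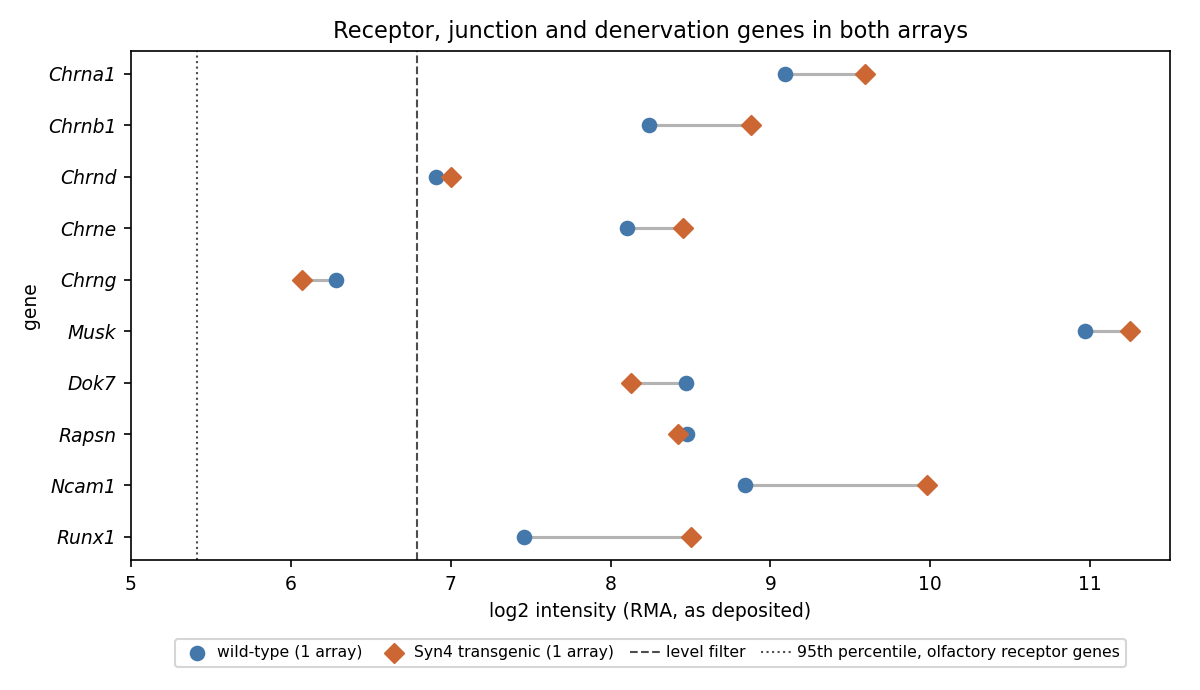
Log2 intensity of the 10 genes (rows) in the wild-type array (circles) and the Syn4 transgenic array (diamonds), 1 array each, with the level filter dashed and the olfactory receptor percentile dotted. Ncam1, Runx1 and Chrnb1 have the widest gaps, and Chrng alone lies under the filter in both arrays.

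Among the receptor subunits, Chrnb1, Chrna1 and Chrne were higher in the transgenic array, Chrnd was close to equal and the fetal subunit gene Chrng was lower. Chrnb1, the beta subunit, was at 8.24 in wild-type and 8.88 in transgenic muscle, a difference of 0.64 or 1.56-fold. It was the only subunit past 1.5-fold. Chrna1, the alpha subunit, which carries most of the acetylcholine binding site, was at 9.09 and 9.59. Its difference of 0.50, or 1.41-fold, fell short of the rule. Among genes that passed the filter, 2.24% were higher by at least as much as Chrnb1 and 3.88% by at least as much as Chrna1. Both lay within the middle 95% of the differences of the 500 genes nearest in level, which ran from -0.46 to 0.69 around Chrnb1 and from -0.51 to 0.61 around Chrna1.

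The 2 subunits that replace each other in development went opposite ways, neither by 1.5-fold. Chrne, the epsilon subunit of the adult receptor, was at 8.10 in wild-type and 8.45 in transgenic muscle (0.35, 1.27-fold higher). Chrng, the gamma subunit of the fetal and denervated receptor, was at 6.28 and 6.07 (-0.21, 1.16-fold lower). The Chrng difference minus the Chrne difference was thus -0.56. Of the genes nearest in level, 9.6% were higher by at least as much as Chrne. Around Chrng, 19.6% were lower by at least as much. Both differences lay within the middle range of those genes, -0.38 to 0.55 around Chrne and -0.44 to 0.49 around Chrng. The gap between the Chrng and Chrne differences was not set against that of other gene pairs. Both Chrng values lay less than 1 log2 unit above the olfactory receptor percentile, by 0.86 and 0.66. Chrng was thus dim in both arrays, which limits what its difference can show. Chrnd, the delta subunit, was nearly equal at 6.91 and 7.00 (0.09) and was also dim.

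Chrnd and Chrng are neighbours on chromosome 1 in the RefSeq annotation, and the next measured gene beyond Chrng, Eif4e2, differed by 0.07. Next to Chrnb1 on chromosome 11, Fgf11 had the same value of 6.39 in both arrays and Zbtb4 differed by 0.05. The neighbours of Chrna1 were Wipf1, at 0.27, and Chn1, at -0.05. These neighbours were taken from gene order alone, and Fgf11 and Chn1 did not pass the level filter.

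The promoters of these subunits are shown because 4 of the 5 genes have a window in the table of RefSeq promoter sequences (build GRCm38.p6) and because the subunits did not differ alike. Each line gives the 160 bases before the annotated transcript start, 5′ to 3′ on the gene's strand. Capitals mark E-boxes (CANNTG, the letters bound by MyoD and myogenin) and the N-box (CCGGAA, bound by ETS factors of the synaptic nuclei).
Chrna1, chr2:73580339-73580498, minus strand: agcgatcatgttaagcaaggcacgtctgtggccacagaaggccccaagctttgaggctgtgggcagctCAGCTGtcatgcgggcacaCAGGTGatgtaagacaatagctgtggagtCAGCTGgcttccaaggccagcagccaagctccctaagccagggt
Chrnb1, chr11:69795938-69796097, minus strand: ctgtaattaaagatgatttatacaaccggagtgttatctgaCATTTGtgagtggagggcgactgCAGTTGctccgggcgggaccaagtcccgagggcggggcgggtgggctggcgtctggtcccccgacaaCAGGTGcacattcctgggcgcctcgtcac
Chrne, chr11:70619195-70619354, minus strand: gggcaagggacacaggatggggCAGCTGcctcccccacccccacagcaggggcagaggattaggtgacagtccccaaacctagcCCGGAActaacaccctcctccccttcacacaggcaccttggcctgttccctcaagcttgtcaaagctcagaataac
Chrng, chr1:87205651-87205810, plus strand: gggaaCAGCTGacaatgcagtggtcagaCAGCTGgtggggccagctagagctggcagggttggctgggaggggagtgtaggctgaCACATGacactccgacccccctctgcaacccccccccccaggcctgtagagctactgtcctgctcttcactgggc

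In the 250 bases before the start, Chrna1, Chrnb1 and Chrng each held 3 E-boxes, and Chrne held 1. Over all 32851 windows of this length, 66.2% held at least 1 E-box and 12.2% at least 3. The CAGCTG form, which is also counted as CANNTG, was found 2 times in Chrna1, 2 times in Chrng, 1 time in Chrne and 0 times in Chrnb1, and 13.0% of all windows held it. Chrne alone of the 4 held an N-box, 76 bases before its start, a match that 12.0% of windows have. Both strands were searched, and no member's window held the RUNX letters TGTGGT, present in 14.0% of windows. Chrna1, Chrnb1 and Chrng, with 3 E-boxes each, had differences of 0.50, 0.64 and -0.21, and Chrne, with 1, had 0.35. Any part of these motifs in the differences was not tested. A match is a description of the letters and not a measured site.

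Musk had 3 E-boxes and Dok7 had 1 before the first of its 2 annotated starts and 0 before the second. Runx1 had 1 N-box and no E-box before one start, and 3 E-boxes before the other. In all, 7 of the 10 genes had a promoter window in that table, and Chrnd, Rapsn and Ncam1 had none.

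**Figure D2:**
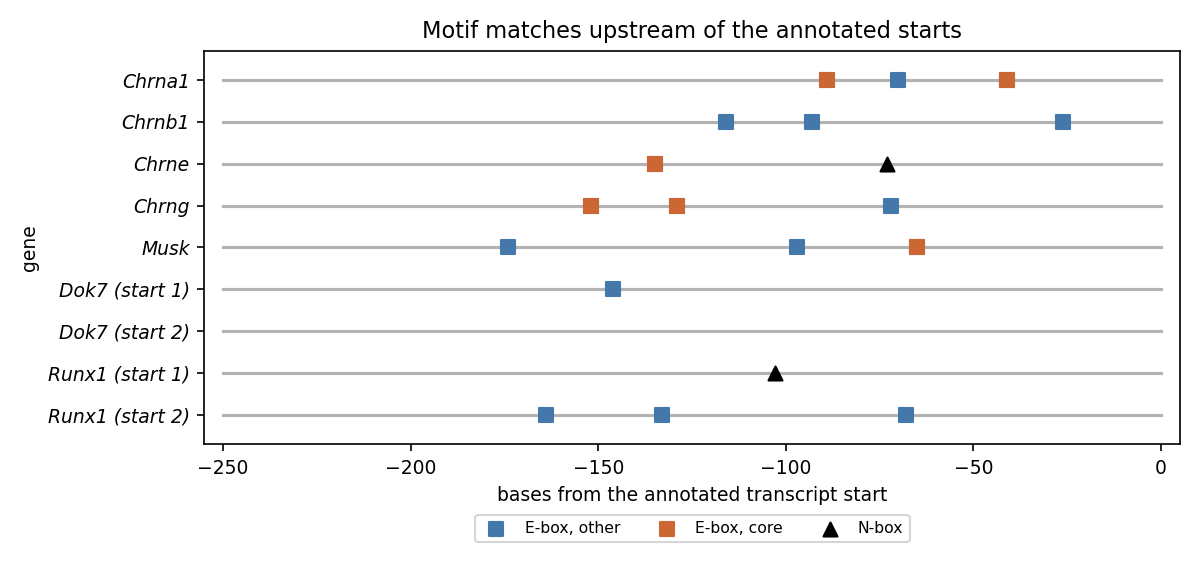
Motif matches in the 250 bases before each of the 9 annotated starts of 7 genes, by distance in bases from the start. E-boxes are squares (the core form in orange) and N-boxes are triangles. Chrna1, Chrng, Musk and Chrne hold the core E-box, and Chrne and one Runx1 start hold an N-box.

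The genes that gather the receptor did not share one direction, and none reached 1.5-fold. Musk, the receptor kinase of the agrin pathway, was at 10.97 in wild-type and 11.25 in transgenic muscle, a difference of 0.28. Dok7, which encodes the adaptor that MuSK needs for activation, was at 8.47 and 8.13. Its difference of -0.34, or 1.27-fold lower, was the lowest of the 10 genes, and 6.31% of the genes that passed the filter were lower by as much. Rapsn, the clustering scaffold, was at 8.48 and 8.42 and so was close to equal (-0.06). The kinase and its adaptor therefore lay on opposite sides of 0, each within the range of the middle 95% of the 500 genes nearest in level (-0.59 to 0.51 around Musk, -0.36 to 0.53 around Dok7).

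The 2 genes known from denervated muscle had the largest differences. Ncam1, a cell adhesion molecule that spreads over the fibre surface after denervation, was at 8.84 in wild-type and 9.98 in transgenic muscle (1.14, 2.20-fold higher). Runx1, a transcription factor that limits wasting of denervated fibres, was at 7.46 and 8.50 (1.04, 2.06-fold higher). These 2 genes also passed a 2-fold rule, which 0.862% of the genes past the filter did in that direction. Their differences were known when they were chosen, so such shares describe their size only. Of the 500 genes nearest in level, 0.4% were higher by at least as much as Ncam1 and 1.6% by at least as much as Runx1. The nearest measured genes did not reach 1.5-fold, with Ttc12 at 0.40 and Plet1 at 0.14 beside Ncam1, and Clic6 at 0.13 and Setd4 at -0.29 beside Runx1. Plet1, Clic6 and Setd4 did not pass the level filter, so they could not have been counted. Gm11149, a gene model that overlaps Ncam1 in the annotation, differed by 0.27 at levels of 5.03 and 5.30.

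**Figure D3:**
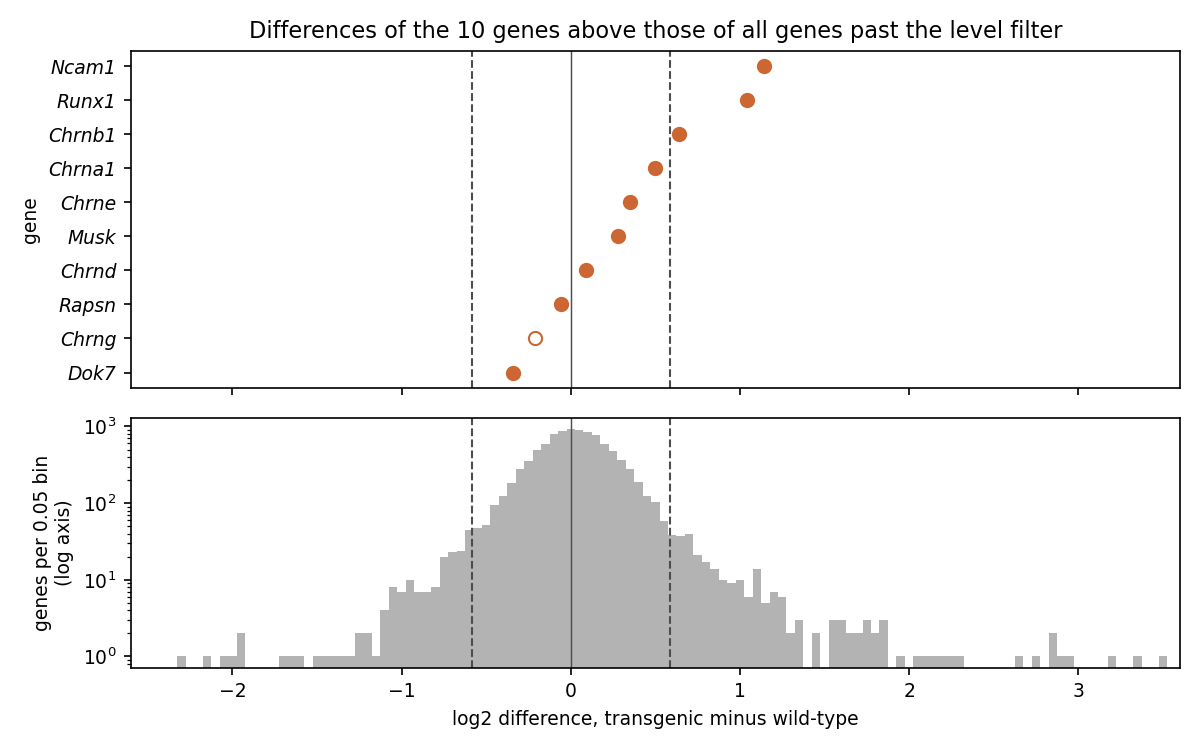
Top, log2 difference (transgenic minus wild-type) of each of the 10 genes, with the open circle for Chrng under the level filter. Bottom, the number of genes per 0.05 bin (log axis) for the 9974 genes past the filter, with dashed lines at 1.5-fold. Ncam1, Runx1 and Chrnb1 lie beyond the upper line, and the other 7 lie between the lines.

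Ncam1 is also made by Schwann cells, satellite cells and motor neurons, and Runx1 by blood cells. Marker genes of these cells were therefore read in the same arrays. In whole tissue, more cells of a type and more RNA per cell cannot be told apart. Of 12 measured Schwann cell markers, 10 were higher, 1 was lower and 1 equal, with a median difference of 0.24. Their median level was 6.63 in wild-type and 6.87 in transgenic muscle, and their values ran from 4.82 to 11.64. Of these 12 markers, 7 passed the level filter and 4 did so in both arrays. The myelin regulator Egr2 (5.86 and 6.94, 1.08) was the only one past 1.5-fold and passed the level filter only in the transgenic array, and Mbp, a myelin protein, was at 7.82 and 8.33. Egr2 is also an immediate early gene.

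Satellite cell markers were mixed, with 3 of 8 higher, 4 lower and 1 equal (median -0.03, median levels 7.02 and 6.88). Only 4 of the satellite cell markers passed the level filter. Pax7, the factor that defines these cells, was at 7.35 and 7.02, and Cdh15 was at 8.74 in both arrays. None of the 9 axon and motor neuron markers passed the level filter, and their median difference was 0.03. In both arrays, 6 of them lay at or below the olfactory receptor percentile. Motor neuron cell bodies lie outside the muscle, so these markers could not show a part of axons. Of 10 blood cell markers, 6 were higher and 4 lower (median 0.05, median levels 6.61 and 6.45), and 4 passed the level filter. Ptprc, carried by all white blood cells, did not pass it, at 6.14 and 6.26.

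Adipocyte and slow fibre markers had larger median differences than the 10 genes. All 6 adipocyte markers were higher by at least 1.5-fold (median 1.72, median levels 7.44 and 9.16), with Lep and Adipoq at 3.20 and 2.06. Only 4 of them passed the level filter in both arrays, and Lep (5.86 and 9.06) and Slc7a10 (6.12 and 6.98) passed only through the transgenic array. All 8 slow fibre markers were lower by at least 1.5-fold (median -0.86, median levels 12.75 and 12.02), Myh7 by -0.82 among them. Of 6 fibroblast markers, 5 were higher (median 0.21). The part of Schwann cells, satellite cells, axons, blood cells, adipocytes, fibroblasts and fibre type in the differences of Ncam1, Runx1 and the receptor subunits was not tested.

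Beyond the 10 genes, other genes of the junction mostly differed by small amounts, though about the same share of them was higher. Of 35 measured partner genes, 24 were higher, 9 lower and 2 equal, with a median of 0.06. The share higher was 68.6%, against 70.0% of the 10 genes and 46.9% of all genes, many of them dim. Among all genes past the level filter, 53.5% were higher by at least 0.01. Of the 32 partner genes that passed the level filter, 1 was past 1.5-fold, where 4.37% of all genes past the filter were so in either direction. That gene was Sntb1, the beta 1 syntrophin of the dystrophin complex, at 8.89 in wild-type and 7.96 in transgenic muscle (-0.93, 1.91-fold lower). The next lowest was Etv4, an ETS transcription factor, at -0.51 and under the filter.

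The partners with the highest differences were Lrp4, the agrin receptor on the fibre (8.23 and 8.77), and Utrn, which encodes the synaptic dystrophin relative utrophin (8.56 and 9.10). Both differed by 0.54, just short of 1.5-fold. The partner genes named next were picked after their values were seen and do not follow the ranking. Erbb2, a subunit of neuregulin receptors, was at 0.49. Ache, the enzyme that ends transmission by cleaving acetylcholine, was at 0.30, and Agrn, which encodes agrin, at 0.05.

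The neuronal subunits of the nicotinic receptor family were near the dim end of the arrays. None of the 11 passed the level filter, and 7 lay at or below the olfactory receptor percentile in both arrays. Their differences ran from -0.56 (Chrna2) and -0.35 (Chrna4) to 0.07 (Chrnb3) and 0.13 (Chrna7), all at levels under 6.37.

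Genes of the denervation response beyond Ncam1 and Runx1 differed in both directions. Of 26 measured genes, 17 were higher, 8 lower and 1 equal, with a median of 0.19. Of the 19 that passed the level filter, 3 were higher by at least 1.5-fold and 1 was lower. Among all genes past the filter, 2.66% and 1.71% were so. The list was chosen with earlier results of these data known, so these counts are a description and no independent support. Highest was Ankrd1, a stress-responsive titin-linked protein, at 8.13 in wild-type and 9.96 in transgenic muscle (1.83, 3.56-fold). Uchl1, a ubiquitin hydrolase abundant in neurons, was at 7.40 and 8.62 (1.22), and Hdac4 at 9.37 and 10.18 (0.81, 1.75-fold). Actc1, the cardiac actin of fetal and regenerating muscle, was the lower one, at 11.38 and 10.26 (-1.12).

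Hdac4, Dach2, Myog and the subunit genes form a known cascade. After denervation the deacetylase Hdac4 rises and represses Dach2, Dach2 no longer represses myogenin (Myog), and myogenin acts on the E-boxes of subunit genes. Dach2 had the lowest difference of the list, at 6.43 in wild-type and 4.55 in transgenic muscle (-1.88). It did not pass the level filter, and its transgenic value lay under the olfactory receptor percentile. Myog was at 6.22 in both arrays, also under the level filter. Chrng, likewise under it, was slightly lower, as given above. Myod1 was at 9.02 and 9.32 (0.30). These last cascade values were named after they were seen.

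Several other classical responses were under 1.5-fold. Trim63 and Fbxo32, the ubiquitin ligases of muscle atrophy, were at 0.52 and 0.47. Kcnn3, the potassium channel that appears in fibres without a nerve, was at 7.11 and 7.65 (0.54). The developmental myosins Myh3 and Myh8 were at 0.13 and 0.35, and Gadd45a at 0.35. These 6 genes were also named after their values were seen. Sln, the calcium pump regulator sarcolipin, was at 5.15 and 6.10, a difference of 0.95 or 1.93-fold, but both values lay under the level filter, so it was not counted. Cdh2 was the lowest after Dach2 and Actc1, at -0.18. Sln and Cdh2 were likewise named after they were seen.

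**Figure D4:**
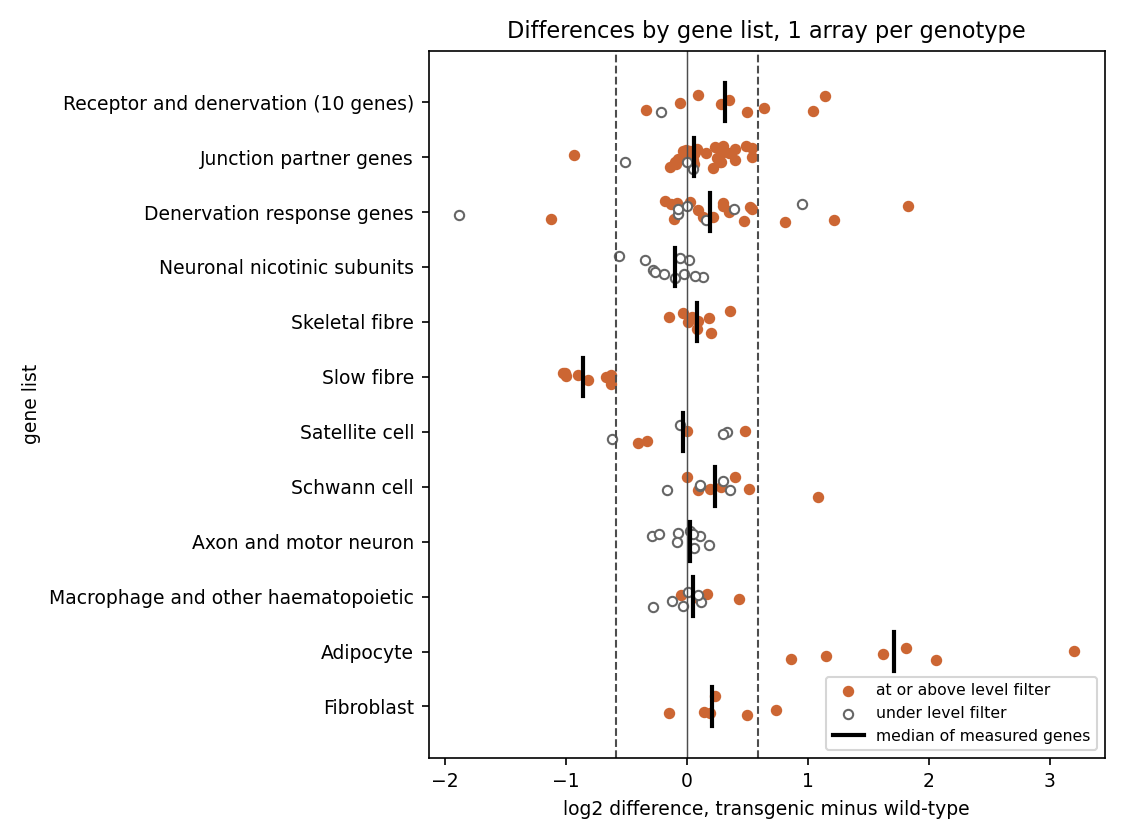
Log2 difference (transgenic minus wild-type) of every measured gene, by list, filled where the gene passed the level filter and open where it did not, with black bars for list medians and dashed lines at 1.5-fold. The 10 receptor and denervation genes have a median of 0.32, the slow fibre markers lie at -0.63 or lower and the adipocyte markers at 0.86 or higher.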

How the data were processed

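The values as deposited are log2 intensities, rounded to 2 decimals, for 35556 probe sets in 2 arrays. RMA in Partek made them, per the submitters' processing notes. The versions, the steps run and the array design's build are details not given in the sources used here. The array medians were equal (6.06), and sorted values differed by at most 0.14. RMA compresses large differences and gives no call of signal above background. Having 2 arrays limits the precision.

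Of the probe sets, 21789 carried 1 gene symbol in the platform annotation, 1621 several and 12146 none. Where a gene had several probe sets, the one with the highest mean was used. The symbols of the 10 members matched RefSeq (GRCm38.p6) through their Entrez identifiers. Motifs were searched on both strands.

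The members and lists were chosen with earlier results of these data known. Named genes were all members, list genes past 1.5-fold and the filter, the 2 highest and 2 lowest of each list, and up to 2 of each marker list; others are said to be named later. No genes were named as most like a member, since 2 arrays give no pattern. Alternatives were other level filters, a 2-fold rule, list means, median centring, loess (span 0.3, 3 iterations), repeated quantile normalization and averaged probe sets. The counting step was tested on simulated data. Python 3.11.15, pandas 2.3.3, numpy 2.4.6 and statsmodels 0.14.6 were used.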

Additional observations from a re-analysis of the deposited data

How the results depend on the processing

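The differences of the 10 genes kept their direction under median centring, loess, repeated quantile normalization and averaged probe sets, and moved by at most 0.06. Chrnb1 lay closest to the 1.5-fold line, with a range of 0.58 to 0.64. The counts of members past the fold rule (3 higher, or 2 at 2-fold, and none lower) and the fetal against adult subunit shift kept within the limits set (1.5 times for a count, 0.1 for a value) under every alternative run. Without Ncam1 and Runx1 the members' median was 0.19 (0.32 with them). Under a 2-fold rule the junction partner genes past the rule numbered 0 in place of 1, and those of all genes 124 in place of 436. Among genes past the level filter only, the denervation response median was 0.30 in place of 0.19. The other 59 alternative values of counts and medians stayed within the limits. The share of higher among called genes was 60.8%, and 52.5% after repeated quantile normalization. No paired analysis was possible because each genotype has 1 array. Dim values, such as those of Chrng, Chrnd, Dach2, Myog and the neuronal subunits, limit what a difference can show.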

Other observations

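The array also carries a probe set for Mir206, the muscle microRNA gene that responds to denervation and acts on Hdac4. It was looked up after the other values were seen, and its log2 intensities of 2.90 and 2.95 lay under the olfactory receptor percentile of 5.42 in both arrays.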
